A study of Mus musculus with 6 samples.

Results

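Of the 43629 genes counted in cultured mouse keratinocytes, 12 formed the group described here, genes lower by a set margin in every library without DNMT1. These genes were selected on their measured expression in all 6 libraries. They are Wnt16, Sostdc1, Frat2, Megf6, Spink8, Fxyd6, Sgce, Enox1, Tmem238l, Cox6b2, Acaa1b and Lrp8os2. Expression is given in CPM, the reads of a gene per 1000000 reads of the library that fell on genes. A gene entered the group if its mean over the control libraries was at least 1 CPM and its highest value without DNMT1 was at most 0.6 times its lowest control value. Of the 12155 genes with a mean control level of at least 1 CPM, 18 met both conditions (0.148%), and the mirrored conditions in the higher direction were met by 598 of 12643 genes (4.73%). From these, 6 were left out by name or type: Dnmt1 itself, Chdh, Krt15, Zfp979, Zfp990 and the long intergenic RNA 4631405K08Rik. The remaining 12 are 11 protein-coding genes and 1 antisense RNA. Because the values in control and knockout chose these genes, their differences between the groups are given below as a description and carry no test.

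The study deleted Dnmt1 in keratinocytes with K5-Cre, a recombinase driven by the promoter of keratin 5, which is active in basal epidermis and hair follicles. The knockout animals carried K5-Cre and the floxed allele on both chromosomes (K5-Cre+ Dnmt1 f/f, named Dnmt1Δ/Δep), whereas controls were Dnmt1 f/f or Dnmt1 f/+ without Cre, on a mixed C57BL/6J and 129SV background. Which of these control genotypes each library had is not given in the sources used here, and since Cre was present in knockouts only, effects of Cre and of the loss of DNMT1 cannot be told apart. Keratinocytes of female mice at postnatal day 3 were cultured for 5 days in a low-calcium growth medium, and polyadenylated RNA from 3 control and 3 Dnmt1Δ/Δep cultures was sequenced.

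DNMT1 copies the methylation of CpG dinucleotides onto the new strand at replication, and methylated CpG-rich promoters are mostly silent. In the epidermis, Wnt ligands signal through Frizzled receptors and stabilise beta-catenin, while bone morphogenetic proteins (BMPs) restrain growth of hair follicle stem cells, so that secreted inhibitors of both pathways shape follicles and the cells between them. Imprinted genes are the classic case in which DNA methylation sets the expression of 1 parental copy.

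Libraries held between 53433121 and 115526598 reads on genes, so that the 3 counts used as a detection floor corresponded to between 0.0260 and 0.0561 CPM, for counting error only. Dnmt1 had 386, 383 and 325 CPM in control replicates 1, 2 and 3 and 48.9, 54.1 and 51.8 CPM in Dnmt1Δ/Δep replicates 1, 2 and 3. Summed basal keratinocyte markers (12 of 12 detected) lay between 30293 and 34924 CPM in control and between 25332 and 25642 CPM in Dnmt1Δ/Δep cultures. Krt5 (means of 17862 and 12662 CPM) and Krt14 (9439 and 6187 CPM) made up most of this sum, while only 4 of the 12 genes had negative log2 fold changes and the median was 0.18. Markers of other cell types were also detected. Sums of sebaceous gland markers (10 genes, 886 to 1183 CPM in control and 836 to 1150 CPM in knockout) and of Merkel cell and neuronal markers (11 genes, 30.4 to 61.9 and 45.2 to 54.7 CPM) overlapped between the groups, as did suprabasal keratinocyte markers (12 genes, 1405 to 2646 and 1316 to 1990 CPM). The sums of the following lists did not overlap. Hair follicle markers (17 genes) summed to 1201 to 1337 CPM in the controls and 983 to 1074 CPM in knockout, with only 10 of 16 tested genes negative. Smooth muscle and pericyte markers (9 genes) summed to 146 to 167 and 179 to 281 CPM, of which Acta2 gave 30.2, 17.9 and 13.6 CPM in the controls and 61.9, 148 and 54.7 CPM in knockout. Melanocyte markers (10 genes) summed to between 228 and 599 CPM in control and to between 707 and 971 CPM in Dnmt1Δ/Δep cultures, fibroblast markers (16 genes) to between 266 and 354 and between 433 and 700 CPM, and endothelial markers (10 genes) to between 11.3 and 21.8 and between 42.1 and 46.7 CPM. Leukocyte markers (14 genes) summed to between 51.6 and 72.0 CPM in control and between 120 and 128 CPM in Dnmt1Δ/Δep cultures, most of it Cd68 (means of 54.1 and 106 CPM), with Cd3e, Cd207, Adgre1, Ly6g and Cpa3 at 3 counts or fewer in every library. The part of these cells in the values below was not tested, and in bulk RNA fewer cells of a type and less RNA per cell cannot be told apart.

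The promoters found for the group ranged widely in CpG content. Of these, 6 are printed here from RefSeq (GRCm38.p6), each as the 250 bases before the annotated start on the strand of the gene, 5′ to 3′ and with every CpG in capitals, because CpG is the substrate of DNMT1 and because the set runs from the poorest to the richest promoter. They lie at chr9:119157094-119157343 (Acaa1b, minus strand), chr9:45369935-45370184 (Fxyd6, plus strand), chr6:22287977-22288226 (Wnt16, plus strand), chr4:154170463-154170712 (Megf6, plus strand), chr19:41848133-41848382 (Frat2, minus strand) and chr14:77156513-77156762 (Enox1, plus strand).
Acaa1b: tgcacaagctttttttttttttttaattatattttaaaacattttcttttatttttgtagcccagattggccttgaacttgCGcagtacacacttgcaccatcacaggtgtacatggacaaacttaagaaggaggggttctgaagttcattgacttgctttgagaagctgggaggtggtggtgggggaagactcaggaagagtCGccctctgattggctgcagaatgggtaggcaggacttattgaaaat
Fxyd6: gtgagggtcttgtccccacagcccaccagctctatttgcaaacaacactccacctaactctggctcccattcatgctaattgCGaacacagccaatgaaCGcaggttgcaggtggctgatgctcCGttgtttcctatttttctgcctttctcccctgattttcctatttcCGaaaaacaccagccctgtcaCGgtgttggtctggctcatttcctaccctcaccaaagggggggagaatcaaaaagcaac
Wnt16: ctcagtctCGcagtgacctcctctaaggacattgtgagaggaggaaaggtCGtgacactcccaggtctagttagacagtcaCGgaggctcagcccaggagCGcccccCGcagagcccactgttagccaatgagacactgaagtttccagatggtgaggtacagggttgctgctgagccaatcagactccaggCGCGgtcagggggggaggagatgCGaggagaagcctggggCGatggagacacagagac
Megf6: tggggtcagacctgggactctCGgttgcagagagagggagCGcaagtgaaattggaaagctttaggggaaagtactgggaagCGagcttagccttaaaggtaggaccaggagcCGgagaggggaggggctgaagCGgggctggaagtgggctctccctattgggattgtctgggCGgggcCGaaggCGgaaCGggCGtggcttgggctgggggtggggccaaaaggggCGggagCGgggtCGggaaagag
Frat2: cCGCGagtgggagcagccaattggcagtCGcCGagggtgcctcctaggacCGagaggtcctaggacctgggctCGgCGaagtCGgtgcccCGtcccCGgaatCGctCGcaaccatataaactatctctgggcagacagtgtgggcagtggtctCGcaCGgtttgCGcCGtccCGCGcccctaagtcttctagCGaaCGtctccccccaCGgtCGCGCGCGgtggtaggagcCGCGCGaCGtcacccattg
Enox1: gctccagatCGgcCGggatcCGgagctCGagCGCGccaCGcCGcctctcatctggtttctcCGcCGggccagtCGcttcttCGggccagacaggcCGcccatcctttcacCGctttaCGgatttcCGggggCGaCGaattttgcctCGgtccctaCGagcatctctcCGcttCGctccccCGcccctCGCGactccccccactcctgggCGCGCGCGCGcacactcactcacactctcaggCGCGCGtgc

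A window was found for 9 of the 12 genes. Windows of Spink8, Sgce and Sostdc1 were missing from the table. The window of Acaa1b held 2 CpGs, a ratio of observed to expected CpG of 0.195, with a GC content of 41.6%. Lrp8os2 (4 CpGs, ratio 0.215), Tmem238l (5 CpGs, 0.329) and Fxyd6 (5 CpGs, 0.331) were also CpG-poor. Wnt16 with 9 CpGs (0.420) and Cox6b2 with 8 CpGs (0.430) had intermediate windows. In contrast, Megf6 had 13 CpGs (0.678), Frat2 29 CpGs (1.07) and Enox1 33 CpGs (1.19, GC content 68.8%), and both latter windows are dense in the capitals of the sequences above. A ratio of at least 0.6 was thus reached by 3 of 9 promoters (33.3%), compared with 7447 of 11603 over all tested genes with a window (64.2%), 13 of 44 over all genes called lower (29.5%) and 183 of 700 over all genes called higher (26.1%). The median ratio was 0.420 in the group and 0.710 over all tested genes. The low share in the group was therefore also seen among genes that changed in the opposite direction, and methylation itself was not measured in these files. The windows of Megf6 and Tmem238l begin from RefSeq starts that lie 17 and 96 bases from the GENCODE starts.

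**Figure D1:**
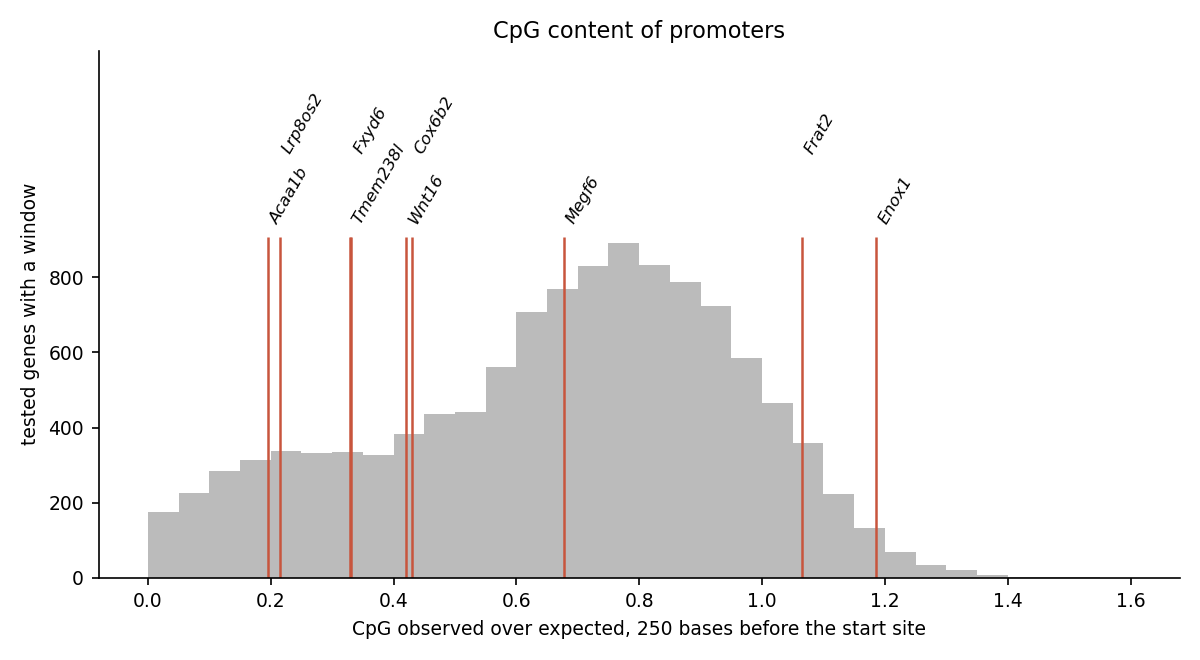
The histogram shows the ratio of observed to expected CpG (horizontal axis, no unit) in the 250 bases before the start of all tested genes with a window, as numbers of genes (vertical axis, with any value beyond the axis in the last bin), and vertical lines mark the 9 genes of the group. Acaa1b lies lowest at 0.195 and Enox1 highest at 1.19, and 3 of the 9 lines stand at or above 0.6.

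The first set of genes acts in Wnt and BMP signalling. Wnt16 (ENSMUSG00000029671, chr6:22288227-22298522, plus strand) encodes a secreted Wnt ligand of skin and bone. It had 6.06, 14.1 and 19.5 CPM in control replicates 1 to 3 and 2.58, 3.26 and 2.99 CPM in Dnmt1Δ/Δep replicates 1 to 3. Control replicate 1 was the lowest control, 3.23 times below the highest, and all Dnmt1Δ/Δep cultures lay below it within a narrow range. The mean was 13.2 ± 6.78 CPM (SD, n = 3) in control and 2.94 ± 0.344 CPM (SD, n = 3) in Dnmt1Δ/Δep cultures, 4.47-fold lower, and the fitted log2 fold change was -2.16 with a standard error (SE) of 0.39.

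Sostdc1 (ENSMUSG00000036169, chr12:36314139-36318452, plus strand) encodes a secreted antagonist of BMPs that also binds Wnt co-receptors and patterns teeth and hair follicles. Its levels were 5.24, 18.4 and 24.4 CPM in the controls and 2.66, 2.95 and 3.13 CPM in the Dnmt1Δ/Δep cultures. No other gene of the group varied as much among controls, with a 4.66-fold range, and control replicate 1 stood closer to the knockouts than to the other controls. The difference of the means was 5.46-fold, and the log2 fold change of -2.45 had the largest SE of the group, 0.50.

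Frat2 (ENSMUSG00000047604, chr19:41845972-41848132, minus strand) encodes a protein that binds GSK3 and so favours beta-catenin signalling. It had 5.01, 6.67 and 5.99 CPM in the controls and 2.87, 2.51 and 2.84 CPM in the Dnmt1Δ/Δep cultures. Both groups were tight and did not overlap, and the 2.15-fold difference was one of the smallest in the group (log2 fold change -1.10, SE 0.18).

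Megf6 and Spink8 encode other secreted proteins. Megf6 (ENSMUSG00000057751, chr4:154170730-154275713, plus strand), a protein of repeated EGF-like domains, was by far the most abundant of the 12 genes, with 98.7, 134 and 112 CPM in the controls and 20.5, 21.9 and 55.7 CPM in the Dnmt1Δ/Δep cultures. Here the spread lay in the knockouts, where replicate 3 exceeded both others and the range was 2.71-fold. The means were 115 ± 17.9 and 32.7 ± 19.9 CPM (SD, n = 3 each), a 3.54-fold difference with a log2 fold change of -1.82 (SE 0.37).

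Spink8 (ENSMUSG00000050074, chr9:109812280-109826633, plus strand), a Kazal-type inhibitor of serine peptidases, had 1.49, 1.92 and 2.69 CPM in the controls and 0.396, 0.541 and 0.381 CPM in the Dnmt1Δ/Δep cultures. This gene had the lowest ratio of highest knockout to lowest control value, 0.363. Its means differed 4.60-fold (log2 fold change -2.20, SE 0.32).

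The next genes encode proteins of membranes. Fxyd6 (ENSMUSG00000066705, chr9:45370185-45396159, plus strand) belongs to the FXYD proteins, small regulators of the sodium-potassium ATPase. It had 4.54, 11.8 and 9.41 CPM in the controls and 1.54, 1.65 and 2.05 CPM in the Dnmt1Δ/Δep cultures. As for Wnt16, control replicate 1 was the lowest control and still lay above all knockouts, and the 4.90-fold difference of the means gave a log2 fold change of -2.29 (SE 0.35).

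Sgce (ENSMUSG00000004631, chr6:4674350-4747207, minus strand) encodes epsilon-sarcoglycan and is expressed from the paternal copy. It had 5.69, 5.13 and 5.35 CPM in the controls and 2.51, 2.93 and 2.81 CPM in the Dnmt1Δ/Δep cultures. This was among the tightest patterns, with controls within 1.11-fold and knockouts within 1.17-fold of each other. The means differed 1.96-fold, and the log2 fold change of -0.97 (SE 0.17) was the only one of the 12 smaller than 1 in size.

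Enox1 (ENSMUSG00000022012, chr14:77156763-77721760, plus strand), an oxidase of the outer cell surface, had 7.57, 11.2 and 8.37 CPM in the controls and 3.43, 4.08 and 4.37 CPM in the Dnmt1Δ/Δep cultures. Its groups were separate and the difference 2.28-fold (log2 fold change -1.19, SE 0.19). Tmem238l (ENSMUSG00000085683, chr11:66956638-66965016, plus strand) had 2.87, 3.06 and 3.03 CPM in the controls and 0.941, 1.21 and 1.68 CPM in the Dnmt1Δ/Δep cultures. Its controls were the most uniform of the group, within 1.07-fold, whereas its knockouts ranged 1.78-fold with replicate 3 highest, and its means differed 2.34-fold.

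The next genes encode enzymes of mitochondria and peroxisomes. Cox6b2 (ENSMUSG00000051811, chr7:4751792-4753094, minus strand) is the testis form of a subunit of cytochrome c oxidase. It had 2.22, 1.96 and 2.11 CPM in the controls and 0.859, 0.611 and 0.736 CPM in the Dnmt1Δ/Δep cultures. Neither group varied by more than 1.41-fold, and the means differed 2.86-fold (log2 fold change -1.52, SE 0.24).

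Acaa1b (ENSMUSG00000010651, chr9:119148023-119157093, minus strand) encodes a peroxisomal thiolase, which cleaves ketoacyl-CoA in the last step of fatty acid oxidation. Its counts of 90, 122 and 81 reads in control and 15, 35 and 59 reads in Dnmt1Δ/Δep libraries include the lowest count of the group, the 15 reads. In CPM, these were 0.932, 1.27 and 1.52 in control and 0.248, 0.403 and 0.511 in Dnmt1Δ/Δep cultures, a 3.15-fold difference of the means without overlap. Its value is uncertain, since 11.4% of its exonic sequence overlaps Dlec1. Only unique reads were counted, so reads that match Acaa1b and the near-identical Acaa1a equally well would be lost.

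Lrp8os2 (ENSMUSG00000073779, chr4:107806033-107823022, minus strand) is transcribed antisense within the locus of Lrp8, a receptor of apolipoprotein E and reelin. It had 3.16, 6.88 and 6.79 CPM in the controls and 1.45, 1.38 and 1.67 CPM in the Dnmt1Δ/Δep cultures. Control replicate 1 was again the lowest control, and the means differed 3.72-fold (log2 fold change -1.89, SE 0.31). Whether reads were counted by strand is not given in the sources used here, so that reads of the antisense gene and of Lrp8 introns cannot be told apart. The annotated exons of Lrp8os2 do not overlap those of Lrp8.

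**Figure D2:**
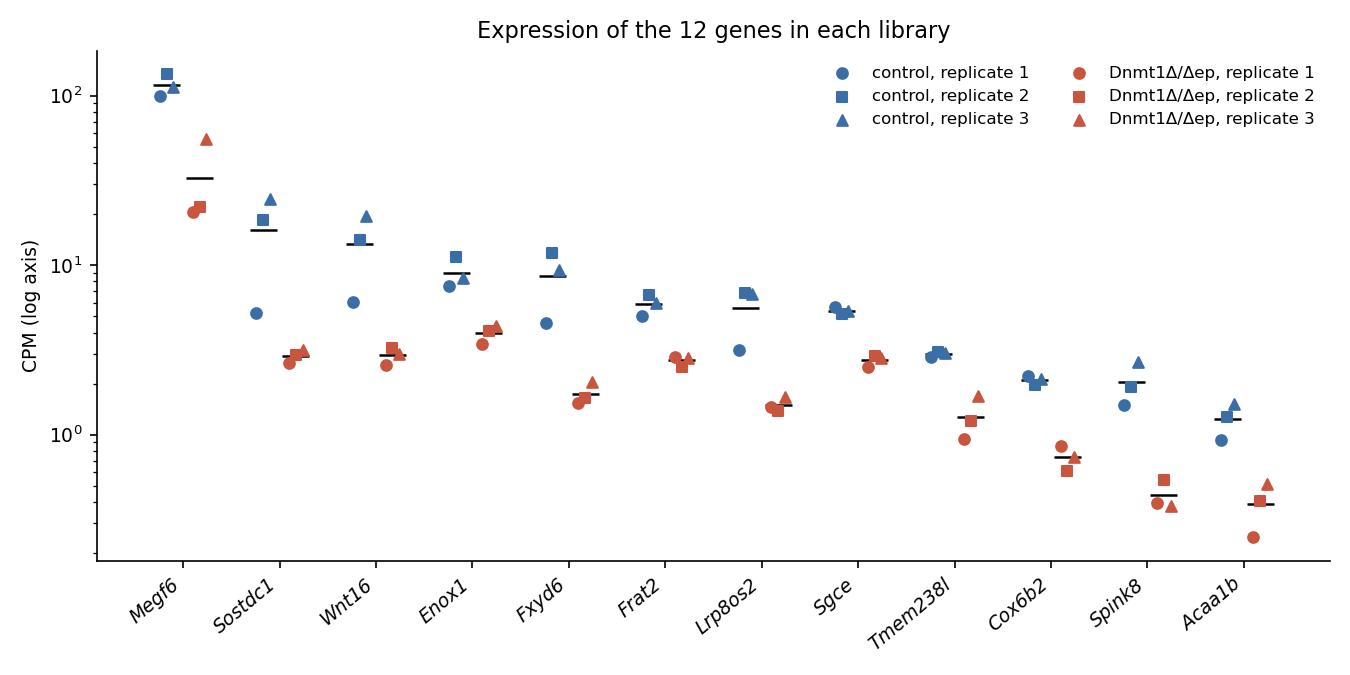
The plot gives CPM (vertical log axis) of each of the 12 genes (horizontal axis) in every library, with control in blue, Dnmt1Δ/Δep in red, a marker shape for each replicate number and a bar at the group mean. Megf6 lies far above the others, blue circles (control replicate 1) are the lowest controls for 10 of the 12 genes, and the red triangle of Megf6 stands at 55.7 CPM above the other red points of that gene.

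Over the 12 genes, the median log2 fold change was -1.74 (range -2.45 to -0.97), compared with -0.00 over the 16829 genes tested. A gene was called if its adjusted p was 0.05 or less and if it also differed by 1 or more on the log2 scale. By edgeR's quasi-likelihood test and the Benjamini-Hochberg method, 11 of the 12 genes were called lower, where the background was 0.392% of all tested genes (66 genes). Since the rule used the same contrast, this count says nothing further about the group, and the gene outside it was Sgce. The same thresholds called 1014 genes higher (6.03%). All 3 knockout libraries lay below all 3 controls for each of the 12 genes, as they did for 1906 of all tested genes (11.3%), and above them for 3114 (18.5%). The calls depended on single libraries. Only 4 of the 12 genes were called without Dnmt1Δ/Δep replicate 1 (Spink8, Cox6b2, Fxyd6 and Frat2) or without control replicate 2 (Spink8, Cox6b2, Fxyd6 and Enox1), and 6 without Dnmt1Δ/Δep replicate 2. Over all tested genes, lower calls also fell from 66, to 15, 15 and 25 in these analyses. The median log2 fold change of the 12 genes in them was -1.62, -1.68 and -1.70, beside -1.74 with all libraries.

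The rule set a sharp border in a continuous distribution. Just inside were Enox1 with a ratio of highest knockout to lowest control of 0.577, Tmem238l with 0.585 and Sostdc1 with 0.598. Just outside were Slc1a3, a glutamate transporter, with 0.601, Gprin3 with 0.608 and Hint2 with 0.609, whose log2 fold changes were -1.39, -1.41 and -0.98. The latter values lie within the range of the group.

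Replicates with the same number shared a lane of the flow cell, so the change was also taken within each pair of libraries. Every gene was lower in the Dnmt1Δ/Δep library of every pair, as the rule requires. In the pair of replicates 1 the median log2 ratio was -1.30, in the pair of replicates 2 -1.76 and in the pair of replicates 3 -1.55, whereas the medians over all genes of at least 1 CPM in control were -0.04, -0.05 and -0.00. The genes did not vary in parallel. Sostdc1 changed by -0.98, -2.64 and -2.96 and Wnt16 by -1.23, -2.11 and -2.71, with the smallest change in the pair of replicates 1. Megf6 changed by -2.27, -2.61 and -1.01 and Tmem238l by -1.61, -1.34 and -0.85, with the smallest change in the pair of replicates 3. Cox6b2 was nearly even over the pairs, with -1.37, -1.68 and -1.52.

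**Figure D3:**
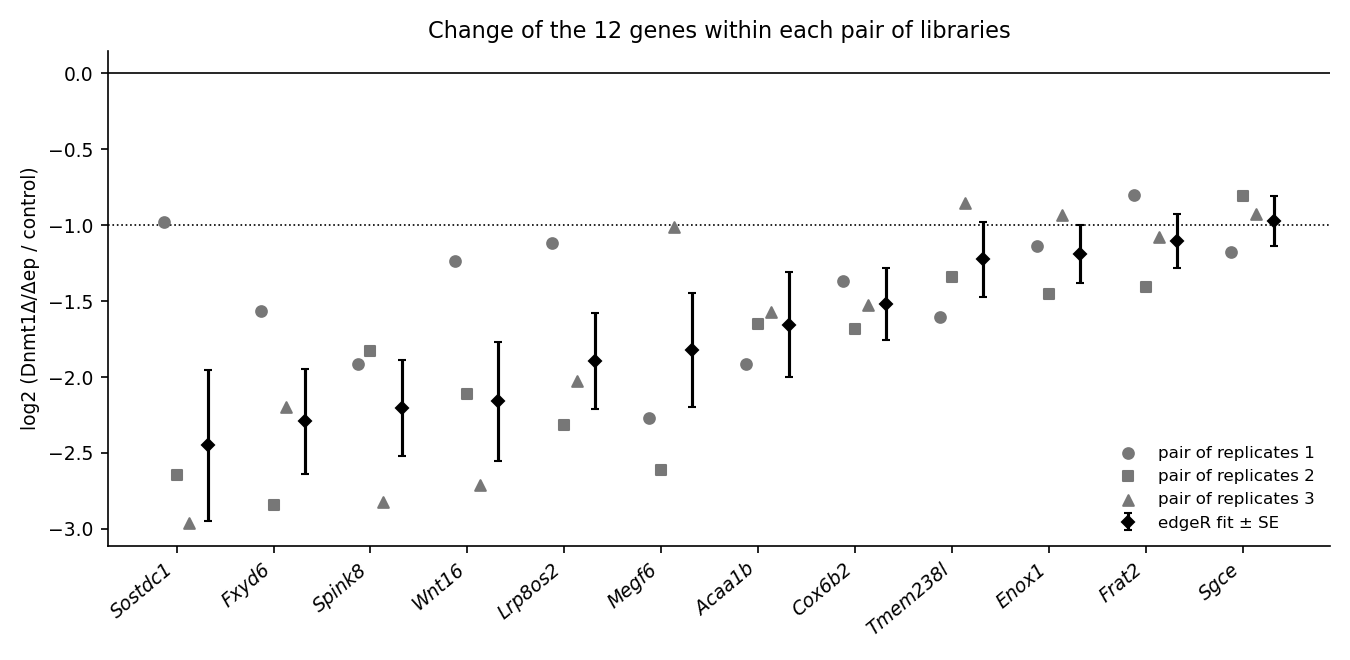
Grey symbols give the log2 ratio of Dnmt1Δ/Δep over control (vertical axis) for each of the 12 genes (horizontal axis) within the pairs of replicates 1, 2 and 3, and black diamonds give the fitted log2 fold change with its SE. Sostdc1 spreads from -0.98 to -2.96 across the pairs, whereas Cox6b2 stays between -1.37 and -1.68, and the dotted line marks a log2 ratio of -1.

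Control replicate 1 was the lowest control for 10 of the 12 genes (83.3%), while it was the lowest for 45.0% of all genes of at least 1 CPM in control. Control replicate 2 was lowest for Sgce and Cox6b2, and control replicate 3 for none. The highest control exceeded the lowest by more than 2-fold for Sostdc1, Wnt16, Fxyd6 and Lrp8os2, 4 of 12 genes (33.3%), compared with 10.4% of all genes of at least 1 CPM. In the same culture, summed melanocyte markers were also lowest (228 CPM, compared with 543 and 599 CPM in control replicates 2 and 3), and so were suprabasal keratinocyte markers (1405 CPM, compared with 2017 and 2646 CPM). The sum of hair follicle markers was 1321, 1337 and 1201 CPM in control replicates 1 to 3, of which Fst alone gave 554, 237 and 189 CPM. Other genes on that list went both ways in control replicate 1. Barx2 (70.6, 205 and 182 CPM) and Vdr (167, 297 and 264 CPM) were lowest there. Sox9 (360, 353 and 338 CPM) and Id2 (30.8, 25.1 and 18.3 CPM) were highest there. The part of these differences in the genes' spread was not tested. Without control replicate 1, the rule was met by 114 genes.

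Per length of their exons, the 12 genes were expressed at low to moderate levels in control, given here in RPKM, the CPM per 1 kilobase of exon. Megf6 was highest with 14.6 ± 2.27 RPKM (SD, n = 3), followed by Sostdc1 with 8.99 ± 5.50, Wnt16 with 3.03 ± 1.56, Frat2 with 2.73 ± 0.385 and Spink8 with 2.48 ± 0.743 RPKM. Fxyd6, Tmem238l, Cox6b2, Lrp8os2 and Enox1 followed with means between 1.14 and 2.09 RPKM, and Acaa1b (0.631 ± 0.149 RPKM) and Sgce (0.508 ± 0.0263 RPKM) were lowest. The ranges of control values overlapped between all neighbours in this order except Enox1 and Acaa1b. In CPM, 9 of the 12 genes lay below 10 in control, and their median of 5.75 CPM compares with 34.6 CPM over all genes of at least 1 CPM. The exons of the 12 genes had a median length of 2691 bases, compared with 3837 bases over all tested genes.

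To see whether the reduction extended to related genes, the nearest relatives of each gene were taken from the same fit. These relatives were chosen after the 12 genes were known. Among 13 further Wnt ligand genes tested, Wnt9a was called, in the higher direction. Wnt4, the most abundant of the Wnt genes named here, had 303, 437 and 283 CPM in the controls and 169, 181 and 182 CPM in the Dnmt1Δ/Δep cultures. It was lower in every knockout, with a log2 fold change of -0.94 (SE 0.16, adjusted p = 0.014 in edgeR's quasi-likelihood test) that did not reach the fold threshold and did so without control replicate 1 or 3 or Dnmt1Δ/Δep replicate 2. Wnt3 had a log2 fold change of -0.68 (SE 0.13, adjusted p = 0.020), with means of 54.7 and 34.2 CPM. Both ligands are produced by epidermal cells. In contrast, Wnt10a (-0.23, adjusted p = 0.50) and Wnt7b (0.17, adjusted p = 0.68) did not pass the test.

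Wnt9a rose from 16.8, 10.3 and 9.32 CPM in control to 30.3, 22.2 and 24.0 CPM in Dnmt1Δ/Δep cultures, with a log2 fold change of 1.06 (SE 0.26, adjusted p = 0.046). This call was kept in 6 of 11 alternatives and was lost when control replicate 2 or 3 or any of the knockouts was left out. Wnt5a had a larger value of 1.26 (SE 0.55, adjusted p = 0.22) but did not pass the test, and Dnmt1Δ/Δep replicate 2 (2.80 CPM) lay among the controls. On a list of 33 tested ligands and inhibitors of the Wnt, BMP and TGF-beta pathways, Wnt9a and Gdf15 were called higher, where 6.03% of all tested genes were. The one gene called lower was Wnt16, which was chosen on the same contrast, so that its call is no further evidence. Sostdc1 and Frat2 are not on the list. The call of Wnt16 was lost without control replicate 2 or any of the knockouts. The median log2 fold change of the list was 0.29 and 11 of its 33 genes were negative, compared with a median of -0.00 and 50.1% negative over all tested genes. The inhibitors Sfrp1 (-0.62, adjusted p = 0.18), Nog (-0.33, adjusted p = 0.67) and Dkk3 (-0.23, adjusted p = 0.68) did not pass the test. At an unadjusted p of 0.05, 5 genes of the list were lower, Wnt16 among them, and 8 higher (all tested genes: 7.79% lower). DESeq2 called Wnt16 lower and 4 genes of the list higher (over all genes, 122 lower and 1393 higher).

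**Figure D4:**
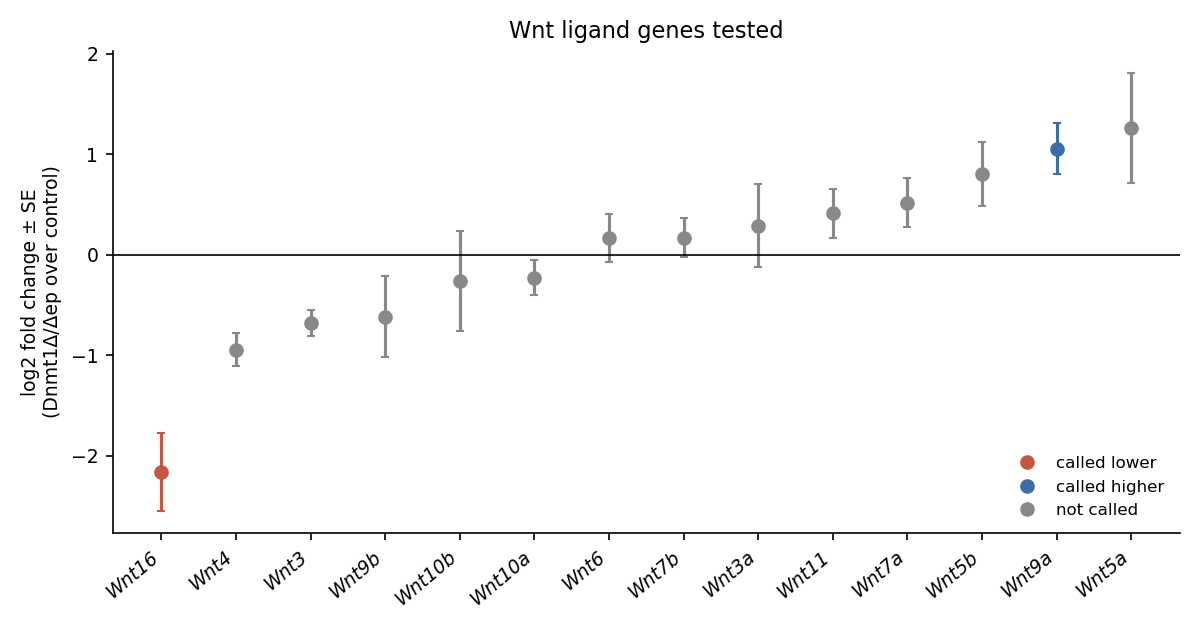
Points give the log2 fold change of Dnmt1Δ/Δep over control with its SE (vertical axis) for Wnt16 and the 13 further Wnt ligand genes tested (horizontal axis), coloured by whether they were called lower, called higher or not called. Wnt16 stands lowest at -2.16, Wnt4 follows at -0.94 without reaching the fold threshold, and Wnt9a at 1.06 is called higher.

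Several close relatives had values unlike those of the genes in the group. Frat1, the paralog next to Frat2, was closest to its partner with a log2 fold change of -1.53 (SE 0.49). It had few reads, 27, 74 and 26 in control and 6, 17 and 26 in Dnmt1Δ/Δep libraries, and did not pass the test (adjusted p = 0.11). With the lane pairs as a block, it was called lower (adjusted p = 0.041). Cox6b1, the widely expressed form of the subunit, had a log2 fold change of -0.22 (adjusted p = 0.44) at 229 and 197 CPM. Acaa1a was nearly even at 29.8 and 29.6 CPM (-0.01, adjusted p = 0.98), and Enox2 was modestly lower at 23.2 and 16.1 CPM (-0.53, adjusted p = 0.050).

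Among the FXYD genes, Fxyd4 rose from 0.197, 0.332 and 0.243 CPM to 1.26, 1.15 and 0.987 CPM in Dnmt1Δ/Δep cultures (log2 fold change 2.12, SE 0.31, adjusted p = 0.0075), a call kept in 11 of 11 alternatives. Fxyd5 had a log2 fold change of 1.81 (SE 0.46, adjusted p = 0.051) and passed the test with the lane pairs as a block (1.88, adjusted p = 0.014). Fxyd3, the most abundant of them in these cells, did not pass it (-0.25, adjusted p = 0.45). Of the other Kazal-type inhibitors, Spink12 was called higher (0, 5 and 3 reads in control and 173, 81 and 69 reads in Dnmt1Δ/Δep libraries). Spink6 was also called higher, with 2, 1 and 1 reads in control and 19, 20 and 16 reads in Dnmt1Δ/Δep libraries. Their log2 fold changes were 5.39 for Spink12 and 3.66 for Spink6. Without control replicate 2, both calls were lost, at 5.97 for Spink12 (adjusted p = 0.066) and 3.38 for Spink6 (adjusted p = 0.074). That of Spink6 was also lost without Dnmt1Δ/Δep replicate 1 (adjusted p = 0.0512) or 2 (adjusted p = 0.0505). Spink5, the skin inhibitor of kallikreins, did not pass the test (log2 fold change 0.84, adjusted p = 0.31), but was called higher without control replicate 3 (1.53, adjusted p = 0.021).

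Lrp8, the gene within which Lrp8os2 lies, had 42.6, 19.3 and 16.2 CPM in the controls and 47.6, 42.5 and 40.7 CPM in the Dnmt1Δ/Δep cultures. Control replicate 1 was near the knockouts, and the log2 fold change of 0.73 (SE 0.35) did not pass the test (adjusted p = 0.27). Without that library, Lrp8 was called higher (1.31). In control replicate 1, then, Lrp8os2 was lowest and Lrp8 highest among the controls.

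Sgce was next set beside a list of imprinted genes that includes it. Of 31 tested on this list, 0 were called in either direction by edgeR's quasi-likelihood test (all tested genes: 0.392% lower and 6.03% higher). At an unadjusted p of 0.05, 5 were lower, Sgce among them, and 5 higher (all tested genes: 7.79% lower). DESeq2 called H19 and Sgce lower and 1 gene higher (over all genes, 122 lower and 1393 higher). Sgce was chosen on the same contrast, so that its values are no further evidence. Without control replicate 1, edgeR called 2 lower, H19 and Plagl1 (180 over all tested genes). Without Dnmt1Δ/Δep replicate 2 it called Sgce lower (25 over all tested genes). The median of the list was 0.20. Sgce and the paternally expressed Peg10 start 99 bases apart and share a promoter region. Peg10 showed 1.28 ± 0.746 CPM in the controls and 1.11 ± 0.293 CPM in the Dnmt1Δ/Δep cultures (SD, n = 3 each), with a log2 fold change of -0.22 (SE 0.44, adjusted p = 0.84 in edgeR's quasi-likelihood test). Whether Sgce and Peg10 differed in their change was not tested. Casd1, on the other side of Sgce, had a log2 fold change of -0.24 (adjusted p = 0.28).

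The reduction was compared with the genes around each locus. Of the 24 nearest tested genes on either side, 0 were called lower or higher by edgeR's quasi-likelihood test (all tested genes: 0.392% lower and 6.03% higher), with 5 lower and 0 higher at an unadjusted p of 0.05 (7.79% of all tested genes were lower at that p), and DESeq2 called Frat1 lower and 0 higher. Their log2 fold changes ranged from -1.53 for Frat1 to 0.34 for Arhgef16, with a median of -0.18, and 18 of 24 were negative (75%, compared with 50.1% of all tested genes). Tmprss13, a membrane-anchored serine protease of the epidermis next to Fxyd6, had 78.7 and 49.0 CPM (-0.68, adjusted p = 0.15). Kmt5c, a histone H4 lysine methyltransferase 4278 bases from Cox6b2, had 30.5 and 22.9 CPM (-0.41, adjusted p = 0.070). Fam3c, next to Wnt16, had 117, 52.9 and 48.7 CPM in the controls and 95.6, 63.2 and 70.9 CPM in the Dnmt1Δ/Δep cultures. Its log2 fold change was 0.06 (SE 0.36, adjusted p = 0.95), and 0.60 (adjusted p = 0.085) without control replicate 1. Dlec1, which overlaps Acaa1b, had few reads and a log2 fold change of -1.30 (SE 0.46, adjusted p = 0.14).

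**Figure D5:**
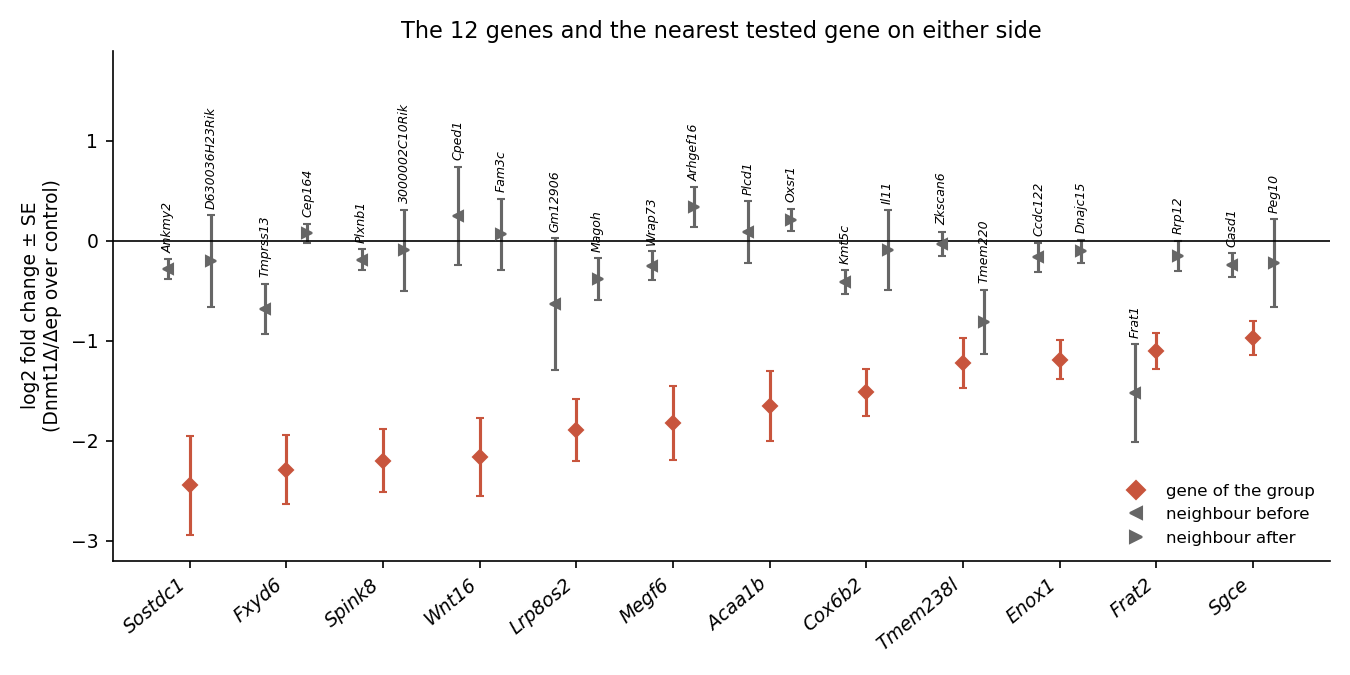
Red diamonds give the log2 fold change with its SE (vertical axis) of each of the 12 genes (horizontal axis), and grey triangles that of the nearest tested gene before and after it on the plus strand. The grey points lie between -1.53 (Frat1) and 0.34 (Arhgef16), and none of these 24 was called.

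The 12 genes lay on 8 chromosomes, with 3 on chromosome 9 (25%, compared with 5.66% of tested genes), 2 on chromosome 4 (16.7% and 6.63%) and 2 on chromosome 6 (16.7% and 4.78%). None of the 12 lay within 100 kb of another. Their gene spans ranged widely around a median of 12325 bases (18975 bases over all tested genes), and that of Enox1 was the longest with 564998 bases.

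Finally, lists of genes of skin cells and pathways were placed beside the group. Of 21 lists, 19 had no gene called lower by edgeR's quasi-likelihood test. Over these 19, with genes on several lists counted each time, 465 genes were tested. Of these, 64 had an unadjusted p of at most 0.05 in the lower direction (7.79% over all tested genes). DESeq2 called 7 lower (122 over all genes), among them Sgce and the suprabasal Krt1 and Krt10. On the suprabasal list it also called 2 genes higher, and Ivl (1.61) and Lor (1.70) had positive log2 fold changes in the edgeR fit. Hair follicle markers had 0 of 16 called in either direction (all tested genes: 0.392% lower and 6.03% higher) and a median of -0.16. At an unadjusted p of 0.05, 3 were lower and 2 higher (all tested genes: 7.79% lower). DESeq2 called 0 lower and 1 higher (over all genes, 122 lower and 1393 higher). Without control replicate 1, Lhx2 and Barx2 were called lower (180 over all tested genes). All 41 genes of mitosis and replication had negative values with a median of -0.38, and 0 were called by either edgeR or DESeq2. Of the 41, 29 had an unadjusted p of at most 0.05 (7.79% lower over all tested genes) and 10 an adjusted p of at most 0.05. Besides Wnt16, the list members called lower were 3 solute carriers of 263 tested, Slc16a7, Slc1a3 and Slc27a3, while 23 solute carriers were called higher (over all tested genes, 0.392% were called lower and 6.03% higher). Fibroblast markers had a median of 1.10 with Fn1 and Sparc called higher of 15 tested, endothelial markers a median of 1.46 with 5 of 9 called higher, and leukocyte markers a median of 2.35 with Itgam and Csf1r called higher of 5 tested, each beside 6.03% called higher over all tested genes. None of the 12 genes was on a list of cell type markers.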

How the data were processed

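Polyadenylated RNA of cultured keratinocytes was sequenced from 3 control and 3 Dnmt1Δ/Δep mice, 6 libraries in all, grouped by their labels. The labels give 5 days of culture, and a legend of the study a shorter time. For the gene table, the authors trimmed adapters, discarded short and ribosomal reads, aligned with STAR and counted unique reads with htseq-count. The deposited table holds these counts, not normalized. The submitters' processing notes name GRCm38, whereas the methods text names a human build. Entries that name no gene held between 8.73% and 12.9% of reads and were left out. The authors' tables of comparisons (fold changes, errors, p-values and normalized values) and the repeat table were not used.

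CPM were counts over gene reads. The test was edgeR's quasi-likelihood test on the counts (TMM, filterByExpr with minimum counts of 10 and 15) and Benjamini-Hochberg adjustment over 16829 genes. The size of a log2 fold change divided by the root of its F statistic gave its SE. RPKM used exon lengths of GENCODE M21. Symbols matched 42462 of 43629 identifiers (97.3%). The procedure was also run on counts simulated without lane effects, and this run is no check of the calls given here. Python 3.11.15 with pandas 2.3.3 and matplotlib 3.10.9 and R 4.3.3 with edgeR 4.0.16 and DESeq2 1.42.0 were used.

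Replicate numbers pair the libraries: equal numbers share a lane (3 lanes in the file headers), and deviations from the group means correlated at 0.43, 0.28 and 0.30. The study's methods use no block. No 2 libraries of the same group agreed within sampling noise. The study gives 3 mice per group.

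The 12 genes and the lists were chosen with earlier results of these data known. All 12 genes are named with values, as are the 3 genes nearest outside the rule. Relatives and neighbours were named after their values were seen. The alternatives were other size factors, DESeq2, no filter on low counts, the block, other limits of the rule and leaving out each library.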

Additional observations from a re-analysis of the deposited data

How the results depend on the processing

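The rule fixes the direction of the 12 genes in any analysis of these libraries. Of 132 values in 11 alternative analyses, 103 kept their side of the thresholds, 25 lost the call and 4, all of Sgce, gained it. The rule gave 3 genes at a ratio of at most 0.5 and 59 at 0.7. Leaving out single libraries, which was chosen after seeing the data for this count, gave between 16 and 114 genes by the rule. Genes called lower numbered 66, but 122 with DESeq2, 107 without the filter on low counts and between 15 and 180 when single libraries were left out. Genes called higher then lay between 559 and 1183, and members of the group called lower between 4 and 11. With the replicate block for the lane pairs, 95 genes were called lower and 1173 higher, with 11 of the 12 genes called lower, and the block changed no call of the 12 and, among the relatives named, those of Frat1 and Fxyd5. With 3 libraries per group, the spread between replicates limited the precision also of genes with many reads, such as Sostdc1 and Megf6.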
